A study of Mus musculus with 26 samples.

Results

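Cyp2b9, Cyp2b10 and Cyp2b13 are 3 cytochrome P450 genes of the mouse Cyp2b subfamily, and they were read as the 3 rows of a table of 47643 genes whose Ensembl identifiers map to those symbols. Their levels were measured by RNA sequencing in 26 mouse liver libraries of 10 groups, which form 5 experiments, each with its own control. Wild-type C57BL/6J mice of 8 weeks were given corn oil or TCPOBOP (2 libraries each, whole liver, fed ad libitum); the sample titles put the TCPOBOP livers at 36 h after injection, while the source field of the same samples says 6 h. Fxr-/- Shp-/- mice were compared with wild-type mice, both C57BL/6J of 12 weeks (3 libraries each, whole liver, fed ad libitum). C3H/HeN mice of 8 to 10 weeks were taken at 48 h after partial hepatectomy or as 0 h sham controls (3 libraries each, whole liver, fed ad libitum). Hepatocytes were isolated from wild-type C57BL/6J mice of 16 weeks on chow or on a 60% fat diet after a 10 h fast (2 libraries each). Mice with floxed alleles, fl/fl Fxr fl/fl Shp, C57BL/6J of 10 to 12 weeks, received chow or a cholic acid diet and an 8 to 10 h fast (3 libraries each, whole liver); both arms carried the floxed alleles and their labels name no Cre. The labels do not say whether replicates came from separate mice, so the p-values below measure the spread between these samples.

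Cytochromes P450 of the CYP2B subfamily are membrane enzymes of the endoplasmic reticulum that oxidise drugs, steroids and other lipophilic compounds with electrons from cytochrome P450 reductase (Por). Cyp2b10 is the standard target of the constitutive androstane receptor (CAR, encoded by Nr1i3), which TCPOBOP activates in the mouse, and its induction is the usual sign of CAR activity in liver. Cyp2b9 and Cyp2b13 are known instead for their sex bias: both are higher in female than in male mouse liver, where the male pattern of pituitary growth hormone keeps them low through STAT5b. Fxr (gene Nr1h4) is the nuclear receptor for bile acids, and Shp (gene Nr0b2) is a corepressor that Fxr induces.

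The genes lie in 1 cluster on chromosome 7, all on the plus strand. In the GENCODE M21 annotation (build GRCm38), Cyp2b10 (ENSMUSG00000030483.14) spans chr7:25897620-25926624, Cyp2b13 (ENSMUSG00000040583.8) chr7:26061497-26096197 and Cyp2b9 (ENSMUSG00000040660.6) chr7:26173411-26210661. The starts of Cyp2b10 and Cyp2b13 are 163.9 kb apart and those of Cyp2b13 and Cyp2b9 111.9 kb apart. The coding sequences of Cyp2b9 and Cyp2b13 were 92.7% identical, those of Cyp2b10 and Cyp2b13 88.8% and those of Cyp2b9 and Cyp2b10 87.8%. Windows were taken along a single transcript of each member. Of those of 50 bases, 27.3% for Cyp2b13, 11.2% for Cyp2b9 and 9.69% for Cyp2b10 also occurred in another gene. At 100 bases the shares were 9.29%, 1.18% and 0%, and 151 of the 165 shared windows of Cyp2b13 were in Gm45225, 21 in Cyp2b9. Reads in such stretches may have been split or discarded in counting, so low counts of Cyp2b13 beside high counts of Cyp2b9 or Cyp2b10 are uncertain.

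The promoters are shown because those of Cyp2b9 and Cyp2b13 have nearly the same sequence. Whether the promoter sequence bears on the levels of the members was not tested. The 250 bases before the RefSeq start (GRCm38.p6, plus strand) are chr7:26173159-26173408 for Cyp2b9, chr7:26061245-26061494 for Cyp2b13 and chr7:25897408-25897657 for Cyp2b10. Capitals mark the letters TTGCNNAA (a pattern bound by C/EBP factors) and ATAAAA (the letters of a TATA-like element), and in Cyp2b9 and Cyp2b13 also the 2 bases at which these promoters differ.
Cyp2b9: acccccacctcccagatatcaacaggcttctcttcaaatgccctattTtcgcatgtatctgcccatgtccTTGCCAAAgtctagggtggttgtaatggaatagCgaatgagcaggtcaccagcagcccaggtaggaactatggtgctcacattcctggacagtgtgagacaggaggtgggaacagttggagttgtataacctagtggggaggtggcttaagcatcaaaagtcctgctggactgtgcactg
Cyp2b13: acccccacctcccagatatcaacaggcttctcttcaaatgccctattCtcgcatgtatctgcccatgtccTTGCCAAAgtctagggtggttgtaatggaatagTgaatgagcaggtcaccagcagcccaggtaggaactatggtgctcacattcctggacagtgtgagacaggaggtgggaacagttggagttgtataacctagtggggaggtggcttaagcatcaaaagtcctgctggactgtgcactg
Cyp2b10: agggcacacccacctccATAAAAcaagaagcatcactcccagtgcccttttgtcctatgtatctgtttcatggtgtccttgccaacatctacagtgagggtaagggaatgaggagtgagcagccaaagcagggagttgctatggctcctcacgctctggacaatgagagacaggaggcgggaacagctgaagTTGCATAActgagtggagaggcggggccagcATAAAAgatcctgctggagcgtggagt
Cyp2b9 and Cyp2b13 shared 248 of these 250 bases (99.2%) and differed by T48C and C104T (the Cyp2b9 base, its position counted from 1 at the 5′ end of the printed sequence, the Cyp2b13 base). Aligned with Cyp2b10, each was identical at 182 of 260 alignment columns (70%). The letters TTGCNNAA began at base 71 in Cyp2b9 and Cyp2b13 and at base 193 in Cyp2b10, and 9.56% of 32851 mouse promoters of that length hold them on either strand. ATAAAA stood at bases 18 and 224 in Cyp2b10 and nowhere in the others (17% of promoters hold it). The letters TTGTATAA, not capitalised above, began at base 192 in Cyp2b9 and Cyp2b13 and were not in the Cyp2b10 window (0.536% of promoters). AGGTCA, the half-site of many nuclear receptors, began at base 113 in Cyp2b9 and Cyp2b13 and was not in the Cyp2b10 window (14% of promoters). Neither AGTTCA, another half-site, nor TTCNNNGAA, the STAT5 pattern, was found in any of the 3 windows on either strand (11.8% and 7.02% of promoters hold them). The GENCODE start of Cyp2b10 lies inside the printed window, upstream of the RefSeq start.

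Libraries held 13949059 to 70367874 reads counted to genes, and 3 counts, taken as the smallest level a library can show, were worth 0.0426 to 0.215 CPM. Levels below are CPM, reads scaled to a common depth with TMM factors over the 26 libraries. Albumin (Alb) stood between 29980 and 102800 CPM in every library. Sex is not given in the labels. Xist had at most 8 counts in each library and the Y-linked Ddx3y at least 779, so by these genes all 26 libraries were male. Alignment lines of reads with several positions, per 100 reads counted to genes, numbered 82.4 to 85.9 in the wild-type libraries and 37.7 to 40.5 in the Fxr-/- Shp-/- libraries, against 21.5 to 36.5 in the others.

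**Figure D1:**
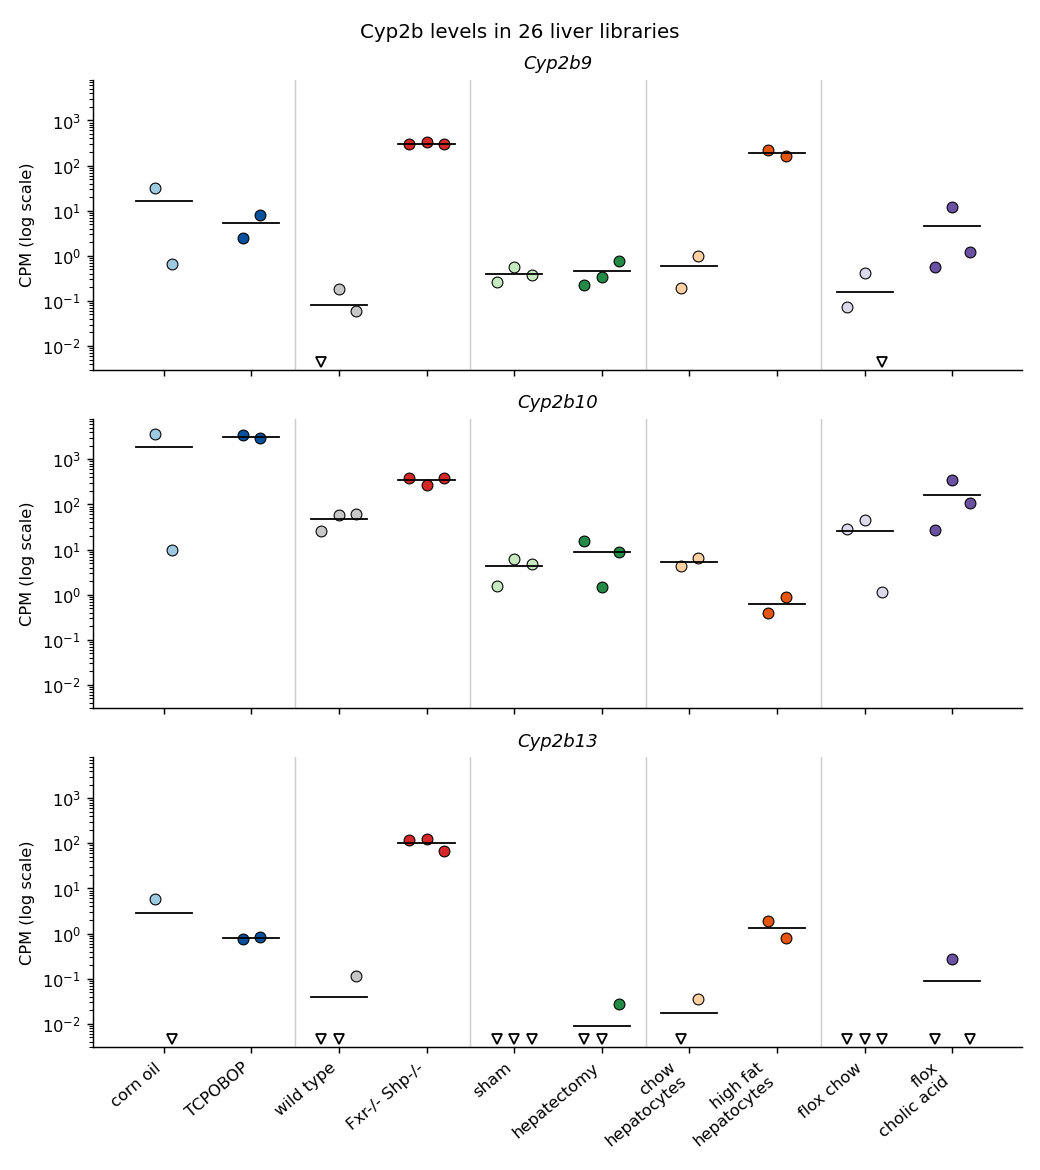
CPM of Cyp2b9, Cyp2b10 and Cyp2b13 (log scale) in the 26 libraries of 10 groups; circles are libraries, open triangles at the bottom are libraries with 0 reads, and bars are group means. Cyp2b9 was above 160 CPM in the 5 libraries of Fxr-/- Shp-/- livers and high fat hepatocytes and at most 31.6 CPM in the others, while Cyp2b10 was highest after TCPOBOP and in the library labelled corn oil 1.

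Across the groups, the order of the levels differed between the members. Cyp2b10 was highest in the TCPOBOP livers (mean 3198 CPM), followed by corn oil (1841 CPM, from 2 very unequal libraries), Fxr-/- Shp-/- (351.8 CPM) and floxed mice on cholic acid (159.2 CPM). It was lowest in high fat hepatocytes (0.631 CPM), whose range did not touch that of the sham livers, the next group above (4.23 CPM); the ranges of all other neighbours in the order overlapped. Cyp2b9 was highest in Fxr-/- Shp-/- livers (308.5 CPM), then in high fat hepatocytes (193.6 CPM) and then in corn oil livers (16.1 CPM), 3 groups with no overlap between neighbours. From corn oil down to wild type (0.0798 CPM), every neighbouring pair overlapped. Cyp2b13 was highest in Fxr-/- Shp-/- livers (103.8 CPM), and the next groups, corn oil (2.89 CPM) and high fat hepatocytes (1.33 CPM), overlapped each other; below these, TCPOBOP livers (0.802 CPM) did not overlap the floxed mice on cholic acid (0.0898 CPM). Per kilobase of exon, the scale on which genes can be compared, the means in Fxr-/- Shp-/- livers were 166.6 CPM per kb for Cyp2b10, 164.4 for Cyp2b9 and 55.4 for Cyp2b13. Strain, age, feeding and tissue vary between experiments, and the order across them is a description.

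TCPOBOP against corn oil asks what CAR activation does to the members. Cyp2b10, the check of that treatment, was high in both TCPOBOP libraries (3420 and 2976 CPM), as high in the library labelled corn oil 1 (3672 CPM), and low in that labelled corn oil 2 (10 CPM). By its Cyp2b10 level, 1 control library therefore went against its label. The group means could not be separated: Cyp2b10 had a log2 fold change of 0.79 ± 1.99 (SE, n = 2 and 2, edgeR adjusted p = 0.983). Not every CAR-induced gene was high in that library. Alas1, of haem synthesis, had 370.1 and 403.4 CPM in corn oil 1 and 2, against 1328 and 1202 CPM with TCPOBOP. Summed over 36 listed CAR-induced genes, the 2 corn oil libraries stood at 20670 and 93050 CPM. The 2 TCPOBOP libraries stood at 75780 and 89140 CPM. Counts over the listed genes are given below. Cyp2b9 was 2.44 and 8.20 CPM with TCPOBOP, against 31.6 CPM in the control labelled 1 and 0.667 CPM in that labelled 2. Cyp2b13 was 0.754 and 0.850 CPM with TCPOBOP, against 5.79 and 0 CPM in the same controls. All 3 members were thus highest in the library labelled corn oil 1 and lowest in that labelled corn oil 2. Of the 3 members 0 passed the test, and the share of all genes called was 0% (edgeR adjusted p under 0.05; 751 of 12785 genes had an unadjusted p under 0.05, and DESeq2's Wald test called 91). The log2 fold changes were -1.60 ± 1.54 for Cyp2b9 and -1.85 ± 1.67 for Cyp2b13 (SE; edgeR adjusted p = 0.946 for both).

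The values with each control library left out show how far this rests on 1 library. Without the library labelled corn oil 1, the log2 fold change was 8.31 for Cyp2b10 (edgeR adjusted p = 1.88e-05), 6.80 for Cyp2b13 (0.0333; the remaining control had 0 reads, so the size depends on the prior count) and 2.98 for Cyp2b9 (0.0595). Without the library labelled corn oil 2 it was -0.21 for Cyp2b10 (0.709), -2.58 for Cyp2b9 (0.0217) and -2.85 for Cyp2b13 (0.00710). In these fits the lone control is assumed to vary like the other libraries. Within the libraries high in Cyp2b10, Cyp2b9 remained a small part of the family: there were 0.0713 and 0.276 Cyp2b9 reads per 100 Cyp2b10 reads with TCPOBOP, 0.860 in the library labelled corn oil 1 and 6.67 in that labelled corn oil 2. Of 36 genes known to be induced by CAR (Cyp2c55, Gstm3, Abcc3, Ugt1a1 and others), 35 were tested and 0 passed, with a median log2 fold change of 0.48 against -0.02 over all genes. Without the library labelled corn oil 1 the median log2 fold change of the 35 tested was 1.47. Without that labelled corn oil 2 it was -0.10 over 36 tested.

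Fxr-/- Shp-/- against wild type asks what the combined loss of the bile acid receptor and its corepressor does. All 3 Cyp2b members rose, and they rose unequally. Cyp2b9 had 0, 0.181 and 0.0588 CPM in the wild-type libraries and 296, 332.2 and 297.1 CPM in the knockout libraries. The wild-type libraries held 0, 3 and 1 reads of Cyp2b9 and the knockout libraries 6836, 7529 and 7268, and in the knockout it stood near the level of Cyp2b10. Its log2 fold change was 11.90 ± 0.28 (SE, n = 3 and 3; edgeR adjusted p = 4.39e-08), the 7th highest of 13473 genes tested. The ratio of the pooled, depth-scaled counts was 4082 (95% interval 1594 to 14980, counting error only).

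Cyp2b13 followed Cyp2b9. It had 0, 0 and 0.118 CPM in wild type (2 reads in all) and 117.4, 126.3 and 67.8 CPM in the knockout, with no overlap. The fitted log2 fold change was 11.23 ± 0.50 (SE; edgeR adjusted p = 1.68e-06), the 8th highest of all genes; from 2 control reads, the pooled ratio was 2729 with a counting interval of 755.2 to 22540. Cyp2b10 was already present in wild type, at 25.8, 59.6 and 60.8 CPM, and stood at 395.2, 271.8 and 388.4 CPM in the knockout. Its groups did not overlap either, and its log2 fold change was 2.87 ± 0.31 (SE; edgeR adjusted p = 0.000195), the 255th highest. The 3 of 3 members raised compare with 21% of all genes raised in this comparison (40.4% called in either direction). Cyp2b9 and Cyp2b13, near 0 reads in wild type, passed the low-count filter through the knockout libraries alone, so their part of that count is no support in itself. Fits without each library in turn kept all 3 members past the threshold, with log2 fold changes of 11.28 to 13.19 for Cyp2b9, 2.56 to 3.05 for Cyp2b10 and 10.65 to 14.11 for Cyp2b13. In a fit over all 26 libraries at once Cyp2b10 did not pass (2.85, edgeR adjusted p = 0.0772).

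The make-up of the family changed with the levels. Cyp2b10 gave 99.8% ± 0.170 (SD, n = 3) of the Cyp2b9, Cyp2b10 and Cyp2b13 reads in wild type and 45.9% ± 7.63 in the knockout, where Cyp2b9 gave 40.5% ± 4.54 and Cyp2b13 13.6% ± 4.22. The log2 ratio of Cyp2b9 to Cyp2b10 reads within a library (0.5 added to each count) was -9.18 ± 0.94 (SD, n = 3) in wild type and -0.17 ± 0.40 in the knockout. The difference of 9.01 had an exact two-sided permutation p of 0.1, the smallest that 3 libraries against 3 can give. The value depends on the added count, because wild type had so few Cyp2b9 reads: with 2 added to each count the difference was 7.84. The other Cyp2b genes contributed nothing measurable: Cyp2b19 and Cyp2b23 had 0 reads in every library. The wild-type and knockout libraries also differ in the share of reads with several alignments given above, and its part in these values was not tested.

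**Figure D2:**
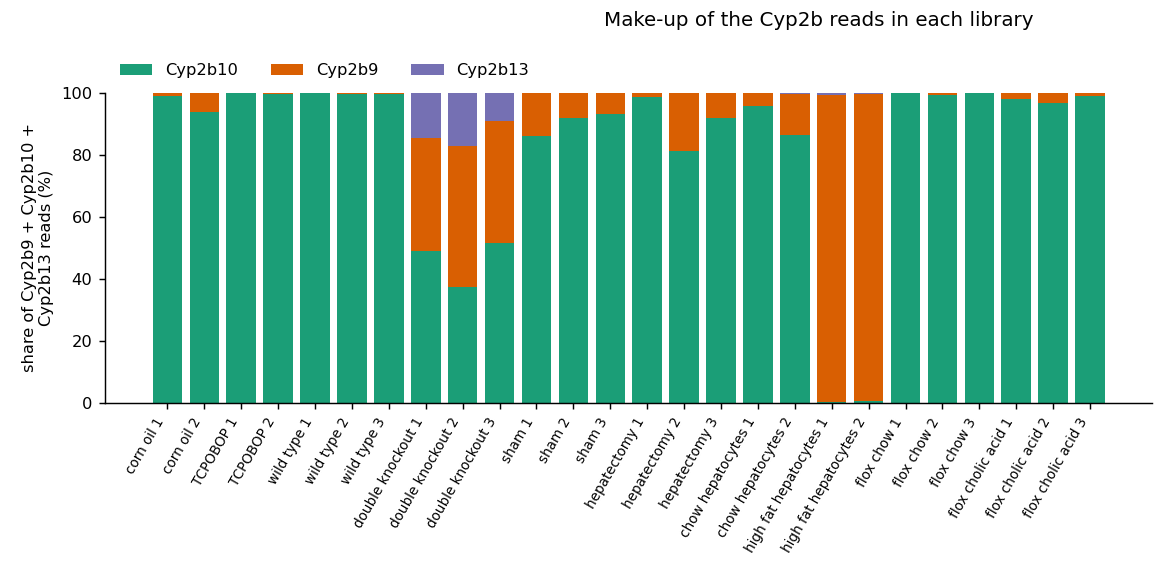
Share of Cyp2b10 (green), Cyp2b9 (orange) and Cyp2b13 (violet) among the reads of the 3 genes, in percent, 1 bar for each of the 26 libraries. Cyp2b10 made up at least 81% in every library except the 3 of Fxr-/- Shp-/- livers (37.2% to 51.6%) and the 2 of high fat hepatocytes (0.172% and 0.529%).

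Genes related to the members by function were described from lists, which were chosen with earlier results of these data known. Of 27 female-biased genes, 25 were tested in the knockout comparison, 23 were raised and 1, Cyp39a1, was lowered; the median log2 fold change was 4.02 against -0.01 over all genes. Several of these genes were near 0 in wild type and passed the low-count filter through the knockout libraries alone. Such genes could only be called raised, so their part of the count and of the median is no support in itself. The 2 that were not tested are not shown to be unchanged. Sult2a1, a sulfotransferase of bile acids and steroids, rose by 12.74 ± 0.27 (log2, with SE; edgeR adjusted p = 3.44e-08), and Cyp2a4, a steroid hydroxylase next to Cyp2b9 on chromosome 7, by 8.71 ± 0.26. All 19 male-biased genes were lowered (median log2 fold change -5.52), among them Slco1a1, an organic anion carrier, at -10.54 ± 0.38. Of the 36 genes known to be induced by CAR, 35 were tested, 21 were raised and 4 lowered, with a median of 0.65. Cyp2c55, a drug and fatty acid oxidising P450, rose by 3.80 ± 0.33, and Sult5a1 fell, at -7.42 ± 0.48.

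Receptor, partner and marker genes were described in the same way. CAR itself (Nr1i3) was lower in the knockout, at 90.6, 104.1 and 113.1 CPM against 245.0, 204.1 and 190.8 CPM in wild type (log2 fold change -1.04 ± 0.13, edgeR adjusted p = 0.00037). Of 8 sensors and regulators, 5 were lowered and 0 raised, which includes the deleted Nr0b2 (-4.03 ± 0.39) and Nr1h4 (-1.27 ± 0.13). Of 5 electron and haem partners of P450 enzymes, 3 were raised (Cyb5a, Cyb5r3 and Pgrmc1) and 0 lowered; Por stood at -0.42 ± 0.34 and did not pass the test. Of 11 genes of the growth hormone axis, 1 was raised and 4 lowered: Bcl6, a repressor of female-biased genes in male liver, at -2.39 ± 0.40, Igf1, Stat5b and Ghr fell, and Cish rose. Among the 6 tested P450 genes of the Cyp2a, Cyp2f and Cyp2g families beside the cluster, 5 were raised and 1, Cyp2f2, was lowered. Markers of other liver cells moved too: 12 of 20 tested (22 listed) were raised and 0 lowered, with a summed level of 385.7 to 639 CPM against 230.4 to 295.4 CPM in wild type, and no marker was at 0 in every library of a group. Of 8 hepatocyte markers 4 were lowered and 0 raised (median log2 fold change -0.43), with Serpina1c at -3.84 ± 0.19 and Apob at -0.62 ± 0.12. The other 4 did not pass. Fgb had 3919, 3514 and 4981 CPM in the knockout and 3447, 4181 and 3529 CPM in wild type. Ttr had 3815, 3840 and 4226 CPM against 4268, 3914 and 4619 CPM, and the groups overlapped for both genes. The part of these markers in the Cyp2b values was not tested; in bulk liver, fewer cells of a type and less RNA per cell cannot be told apart.

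High fat diet against chow in isolated hepatocytes separated the members most clearly, since Cyp2b9 rose while Cyp2b10 fell. Cyp2b9 had 0.194 and 0.986 CPM on chow and 224 and 163.3 CPM on the high fat diet. Its log2 fold change was 8.29 ± 0.51 (SE, n = 2 and 2; edgeR adjusted p = 0.00123), the 2nd highest of 13892 genes. Cyp2b10 had 4.22 and 6.50 CPM on chow and 0.390 and 0.873 CPM on the high fat diet, with no overlap and a log2 fold change of -3.11 ± 0.41 (SE; edgeR adjusted p = 0.00808). Cyp2b10 was thus among the strongest falls, at rank 13839 of 13892 from the top. Cyp2b13 had 0 and 0.0346 CPM on chow (2 reads) and 1.87 and 0.781 CPM on the high fat diet; the pooled ratio was 73.0 (counting interval 19.9 to 607.4) and the fitted log2 fold change 6.01 ± 0.89 (SE; edgeR adjusted p = 0.0107). Over all genes, 12.9% were raised and 11.1% lowered (24% called), and all 3 members were called, of which Cyp2b13 passed the filter through the high fat libraries alone. In a fit over all 26 libraries at once Cyp2b10 no longer passed (-3.08, edgeR adjusted p = 0.257).

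In the same hepatocytes Cyp2b9 went from 8.74% ± 6.16 (SD, n = 2) of the family's reads on chow to 99.0% on the high fat diet in both libraries, and Cyp2b10 from 91.0% ± 6.49 to 0.351% ± 0.252. The log2 ratio of Cyp2b9 to Cyp2b10 differed by 11.88 between the diets (exact two-sided permutation p = 0.333, the smallest that 2 against 2 can give), with library values that did not overlap. The reads of Cyp2b13 were 0.837 and 0.478 per 100 reads of Cyp2b9 in these libraries, few enough that the shared stretches of sequence described above matter for its value; the effect was not tested. Of the female-biased genes, 18 of 27 were tested, 10 were raised and 2, Cyp2c40 and Cyp2c69, lowered (median log2 fold change 2.39 against 0.01 over all genes). Ntrk2, a neurotrophin receptor gene, rose by 7.36 ± 0.75 and Cyp2a22 by 6.14 ± 0.34. Of the 19 male-biased genes, 18 were lowered and 0 raised (median -2.48). Of 35 tested CAR-induced genes, 6 were raised and 12 lowered (median -0.16); Cyp3a11, a major steroid and drug hydroxylase, fell, at -4.60 ± 0.16, and Cyp2c55, at -2.06 ± 0.24. Nr1i3 was 427.0 and 549.6 CPM against 307.1 and 498.5 CPM on chow, overlapping groups.

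Transcripts that mark other cell types moved with the diet as well. Of 22 markers of other liver cells, 16 were tested, 12 were raised and 0 lowered, with a summed level of 139.5 and 153.4 CPM against 64.9 and 67.5 CPM on chow. Krt19, Epcam and Cd79a, markers of bile duct and B cells, were at 0 in both chow libraries. Their part in the Cyp2b values was not tested. Of 8 hepatocyte markers, 1 was lowered, Apoa1, and Alb stood at 0.04 ± 0.11.

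Cholic acid against chow in the floxed mice asks how a bile acid load acts with Fxr and Shp alleles that the labels do not describe as deleted. Nr0b2, which Fxr induces, rose by 1.96 ± 0.27 (log2, with SE; edgeR adjusted p = 0.00982). Cyp2b10 had 28.2, 46.3 and 1.16 CPM on chow and 27.5, 343.2 and 107.0 CPM on cholic acid. These groups overlapped, and the log2 fold change of 2.65 ± 1.15 (SE, n = 3 and 3) did not pass the test (edgeR adjusted p = 0.214). Cyp2b9 had 0.0740, 0.407 and 0 CPM on chow and 0.555, 12.1 and 1.24 CPM on cholic acid, without overlap. These were 1, 6 and 0 reads against 11, 225 and 26. The gene passed the low-count filter through the cholic acid libraries alone, so the lack of overlap is no support in itself. The log2 fold change of Cyp2b9, 4.74 ± 1.42, did not pass the test (edgeR adjusted p = 0.0965). Nor did it pass in the 4 fits without a single library that tested the gene (4.18 to 6.72, edgeR adjusted p 0.0797 to 0.188). It passed with DESeq2's Wald test, with no filter on low counts and in a fit over all libraries, with adjusted p-values from 0.0145 to 0.0470 at log2 fold changes of 4.75 to 4.84. Cyp2b13 had 0 reads on chow and 0, 5 and 0 on cholic acid, and was not tested. With 0 of 2 tested members called, the background in this comparison was 4.77% of genes called (2.27% raised, 2.5% lowered).

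The library of cholic acid 2 was the highest of its group in all 3 members. It was the only one of the 6 with a Cyp2b13 read, and it held 4037 CPM of Cyp2a5 against 1082 and 2329 CPM in the other cholic acid libraries. Cyp2a4 was also highest there, at 70.9 CPM, against 6.46 and 1.29 CPM in the other cholic acid libraries and 0.0740 to 0.217 CPM on chow. Without cholic acid 2, the log2 fold change of Cyp2b10 was 1.41 (edgeR adjusted p = 0.509). The family's make-up stayed with Cyp2b10, which gave 99.6% ± 0.447 (SD, n = 3) of the reads on chow and 97.8% ± 1.19 on cholic acid. The log2 ratio of Cyp2b9 to Cyp2b10 differed by 0.99 between the diets (exact two-sided permutation p = 0.4).

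Many of the CAR-induced genes passed the test in this comparison. Of 35 tested, 21 were raised, 3 were lowered and 11 did not pass, with a median log2 fold change of 1.44 against 0.01 over all genes. Cyp2c55 had 7.18, 16.8 and 9.49 CPM on chow and 117.5, 348.4 and 330.7 CPM on cholic acid (log2 fold change 4.57 ± 0.51, edgeR adjusted p = 0.0039). Akr1b7, an aldo-keto reductase, and Gstm3, a glutathione transferase, rose by 6.86 ± 0.77 and 6.22 ± 0.43. Leaving out single libraries moved the number raised from 21 to between 11 and 24; it was 11 without chow 1, without chow 2, without cholic acid 2 and without cholic acid 3. Of the female-biased genes 15 of 27 were tested, 2 were raised (Cux2 and Prom1; 1 to 3 in the fits that left out a library) and 0 lowered, while 13 of 18 tested male-biased genes were lowered and 0 raised. The male-biased count was 6 without chow 2 or cholic acid 1, 8 without chow 1 or cholic acid 2. Of the markers of other cells, 1 of 19 tested was raised (Reln; 6 of 20 without chow 3, and 0 in each of the other 5 fits that left out a library), with summed levels of 291.2 to 439.1 CPM against 213.4 to 351.8 CPM on chow.

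**Figure D3:**
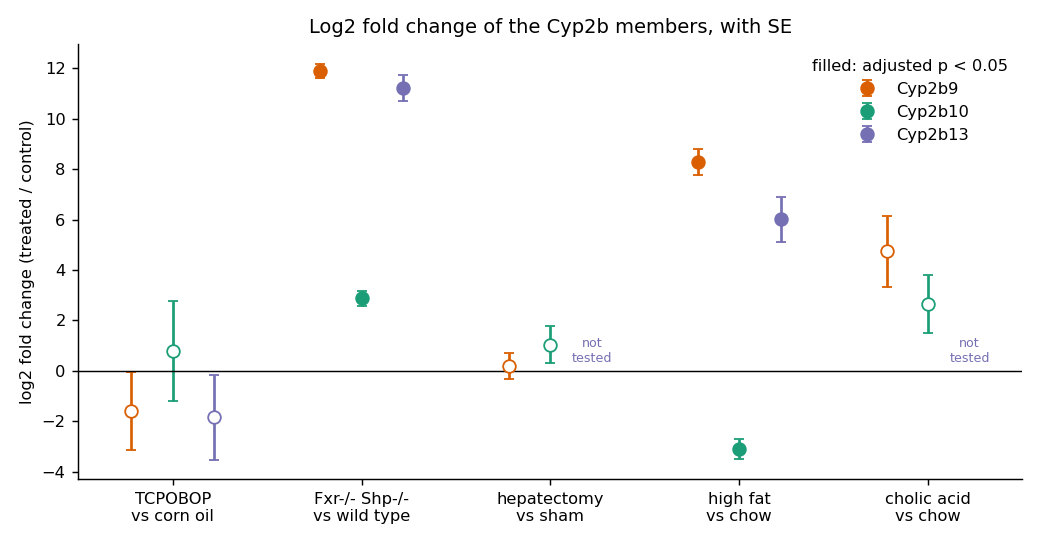
Log2 fold change of each member in the 5 comparisons, treated over control, with its SE from edgeR; filled points had an adjusted p under 0.05. Cyp2b9 and Cyp2b13 lay above 6 in the Fxr-/- Shp-/- and high fat comparisons, whereas Cyp2b10 was 2.87 in the first and -3.11 in the second.

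Partial hepatectomy asks how the members stand in regenerating liver. Cyp2b10 had 1.58, 6.19 and 4.91 CPM in sham livers and 15.6, 1.51 and 8.95 CPM at 48 h. The groups overlapped, and the log2 fold change was 1.03 ± 0.74 (SE, n = 3 and 3; edgeR adjusted p = 0.327). Cyp2b9 stayed low, at 0.258, 0.555 and 0.367 CPM in sham livers and 0.228, 0.348 and 0.784 CPM after hepatectomy, with a log2 fold change of 0.20 ± 0.52 (edgeR adjusted p = 0.802) that was -0.03 without sham 1 and -0.46 without hepatectomy 3. Cyp2b13 had 1 read in the 6 libraries. None of the 2 tested members was called, where 30.7% of all genes were (16.4% raised, 14.3% lowered). Of the CAR-induced genes 4 of 35 were raised and 10 lowered, of the female-biased genes 1 of 18 was raised and 8 were lowered, and of 18 tested male-biased genes 2 were raised and 7 lowered. In fits that left out 1 library, the CAR-induced genes raised numbered 2 to 6 and lowered 6 to 12, with both at their lowest without sham 2 or sham 3. The female-biased genes raised numbered 1 to 2 and lowered 6 to 11, and the male-biased genes raised 0 to 3 (0 without sham 2 or sham 3) and lowered 5 to 8. Por fell, at -1.09 ± 0.25, and Nr1i3 at -0.71 ± 0.15. Of the markers of other cells 3 of 19 were raised and 1 lowered (2 to 4 raised and 1 to 3 lowered with 1 library left out).

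**Figure D4:**
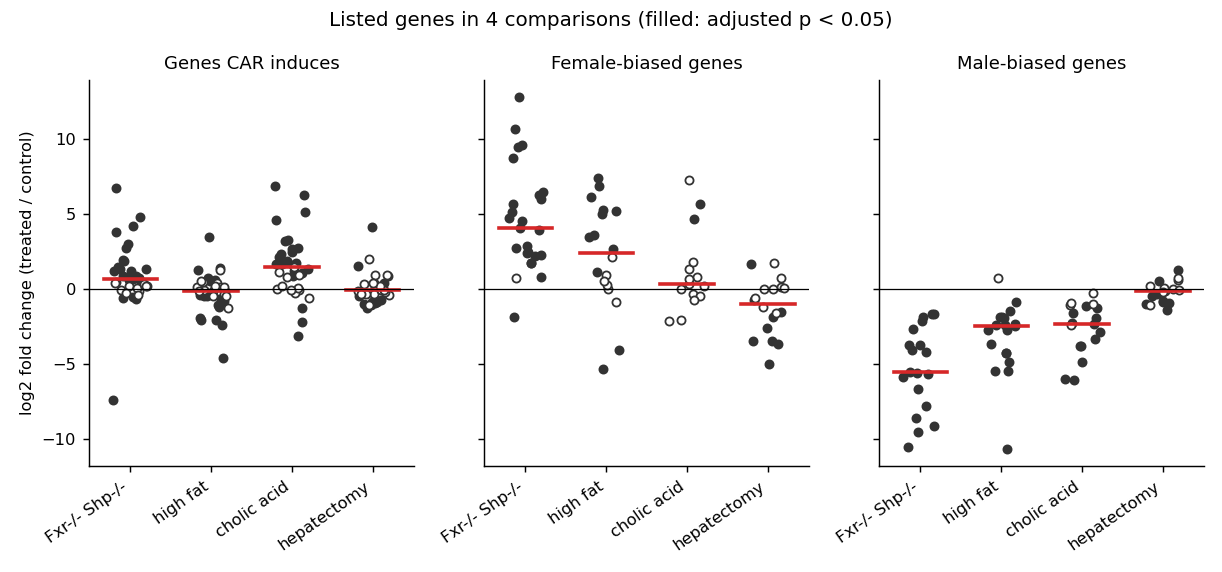
Log2 fold change, treated over control, of the tested genes known to be induced by CAR, of female-biased and of male-biased genes in 4 comparisons; filled points had an edgeR adjusted p under 0.05 and red bars are medians. Female-biased genes had medians of 4.02 and 2.39 in the Fxr-/- Shp-/- and high fat comparisons and CAR-induced genes of 0.65 and -0.16. Several female-biased genes passed the low-count filter through the knockout libraries alone.

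The differences between the experiments were tested directly. The knockout effect minus the high fat effect was 5.99 ± 0.58 for Cyp2b10 (log2 ± SE; edgeR adjusted p = 9.38e-05) and 3.67 ± 1.00 for Cyp2b9 (0.0307); for Cyp2b13 it was 5.41 ± 3.43 (0.317), where both controls were near 0 reads. Cyp2b9 too had few control reads, 4 in wild type and 67 in chow hepatocytes. Its means were 308.5 CPM in the knockout and 193.6 CPM on the high fat diet. The size of its difference therefore depends on those control reads. With that limit, 2 of 3 members were called, both raised, where 7.98% of genes were raised and 8.11% lowered (16.1% called). The fit over all libraries ended both calls (Cyp2b10 5.93, adjusted p = 0.0792; Cyp2b9 3.59, 0.402). Cyp2b9 also missed the threshold without wild type 1, wild type 3, chow hepatocytes 2 or high fat hepatocytes 2 (2.05 to 3.53, adjusted p 0.0677 to 0.172). Tissue, age and feeding differ between these experiments together with the treatments and cannot be told apart from them. The knockout effect minus the cholic acid effect was 0.22 ± 1.26 for Cyp2b10 (edgeR adjusted p = 0.937) and 7.16 ± 3.10 for Cyp2b9 (0.147), so 0 of these 2 members passed, with 13.9% of genes called (7.18% raised, 6.74% lowered). The Cyp2b10 difference changed sign without wild type 1, chow 2 or cholic acid 1 of the floxed mice, and the Cyp2b9 difference passed without cholic acid 2 (9.49, adjusted p = 0.00253) and with no filter on low counts (7.16, 0.0469). For Cyp2b13, with 0 reads in the floxed mice on chow, the fitted difference was 7.43 with an SE of 223.2 (edgeR adjusted p = 0.993), too wide to read a size or direction from. The hepatectomy effect minus the cholic acid effect was -4.55 ± 1.69 for Cyp2b9 (0.0961) and -1.62 ± 1.501 for Cyp2b10 (0.526), neither past the threshold where 13% of genes were called (8.01% raised, 5.01% lowered). The Cyp2b9 difference passed with DESeq2's Wald test (-4.64, adjusted p = 0.0457), with no filter on low counts (-4.57, 0.0330) and without cholic acid 1 (-5.09, 0.0428). The hepatectomy experiment differs from that with cholic acid in strain, age, floxed alleles and feeding. The knockout experiment differs from it in floxed alleles and feeding. In both differences these cannot be told apart from the treatments.

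**Figure D5:**
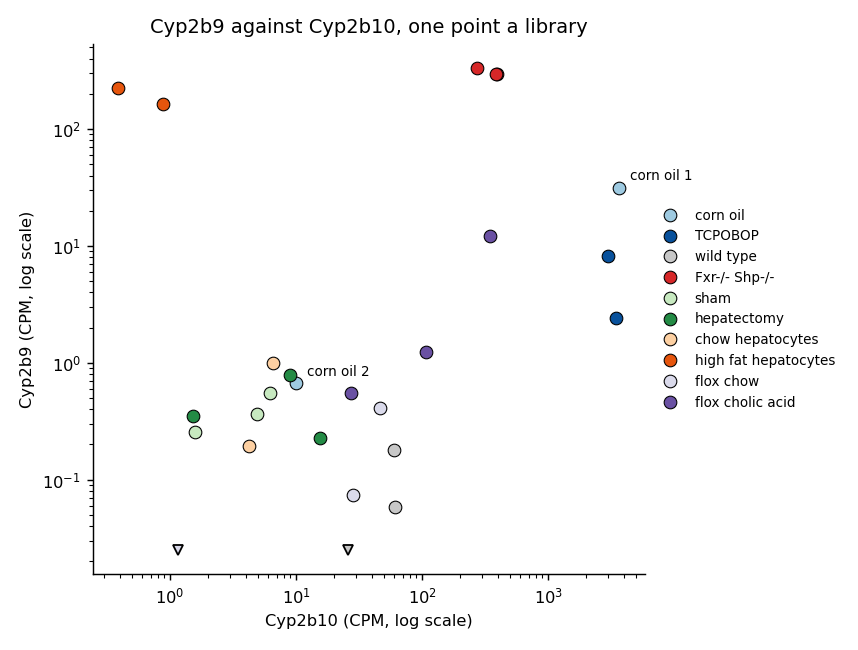
Cyp2b9 against Cyp2b10 in CPM (both log scales), 1 point for each of the 26 libraries, coloured by group; triangles at the bottom are libraries with 0 Cyp2b9 reads. The high fat hepatocytes lie at high Cyp2b9 (224 and 163.3 CPM) and low Cyp2b10 (below 1 CPM), and the TCPOBOP livers at high Cyp2b10 (3420 and 2976 CPM) with Cyp2b9 below 10 CPM.

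How closely the members followed each other was described over the 26 libraries on log2(CPM + 0.5), after the mean of each experiment was subtracted. Cyp2b9 and Cyp2b13 had a Pearson correlation of 0.90, Cyp2b9 and Cyp2b10 of 0.39, and Cyp2b10 and Cyp2b13 of 0.42. The libraries of an experiment share their treatment, and the knockout weighs heavily: without that experiment (20 libraries) the values were 0.81, 0.21 and 0.35. Without the library labelled corn oil 1 they were 0.89, 0.36 and 0.40. By the same measure, among 12160 genes, those most like Cyp2b10 were Cyp2c55 (0.86), St3gal1 (0.84), Nmt2 (0.83), Ybx3 (0.82) and Tbl2 (0.81). Without subtracting the experiment means, Tbl2 correlated with Cyp2b10 at -0.03. The genes most like Cyp2b9 were Cyp2a22 (0.92), Tle3, Vldlr, Ces1g and Nbdy (all 0.91). Those most like Cyp2b13 were Fads3 (0.95) and, at 0.94, Sult2a1, Ctse, Sult2a6 and Sult2a2. In Fxr-/- Shp-/- livers the means of Sult2a1, Sult2a6 and Sult2a2 were 1187, 101.6 and 251.1 CPM. In the other groups their means were at most 0.167, 0.0276 and 0.0675 CPM, so their correlations rest on the knockout experiment. Ctse had a mean of 21.2 CPM in Fxr-/- Shp-/- livers and at most 0.749 CPM in the other groups. The median correlation of Cyp2b10 was 0.54 with the CAR-induced genes, 0.25 with the female-biased and -0.30 with the male-biased genes. For Cyp2b9 the medians were 0.36, 0.71 and -0.81, and for Cyp2b13 0.29, 0.61 and -0.67. The median over all genes lay between -0.05 and -0.01 for each member. Sult2a1 is among the female-biased genes and was high in the knockout libraries alone, so the medians for that list rest in part on that experiment. The list medians were not computed without it.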

How the data were processed

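RNA of whole livers or isolated hepatocytes was sequenced from strand-specific TruSeq mRNA libraries, per the labels' protocols. Per the submitters' processing notes the tools include bcl2fastq 2.17.1.14, Trimmomatic, STAR 2.4.2a, Picard 1.119 and HTSeq, with builds GRCm38 and mm10; strand setting and annotation release are not given in the sources used here. The authors deposited 1 table of raw read counts per gene, 47643 genes and 5 summary lines, which were left out of library sizes and tests. Symbols were matched to 47224 identifiers.

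Each comparison was fitted on its own groups with edgeR 4.0.16 (limma 3.58.1, R 4.3.3): filterByExpr (count 10, total 15), TMM, quasi-likelihood F test, Benjamini-Hochberg adjustment over all genes tested, calls at an adjusted p under 0.05. SE is the size of the log2 fold change over the root of its F statistic. Differences between effects were tested in 1 model over both experiments. Ratios within a library were compared by exact permutation. Intervals are at 95% and, like the 3-count limit, cover counting error only. Gene models are GENCODE M21; promoters are RefSeq (GRCm38.p6), found for all 3 members. The procedure was tested on simulated data.

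Members and gene lists were chosen with earlier results of these data known. Named genes are the members, genes of the lists, and for each member the 5 genes of highest correlation with it (mean CPM of at least 1). Alternatives were DESeq2 1.42.0 size factors and Wald test, no low-count filter, a minimum mean count of 10, 1 fit over all libraries, a replicate block, another pseudocount for ratios and leaving out each library; list counts without single libraries were added after seeing the data. Per-sample columns left unused: 0. Protein sequences were not used here.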

Additional observations from a re-analysis of the deposited data

How the results depend on the processing

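In the Fxr-/- Shp-/- and high fat comparisons the 3 members kept their direction in each alternative run, and the exceptions in calls were those of Cyp2b10 in 1 fit over all libraries: 2.85 (edgeR adjusted p = 0.0772) in the knockout and -3.08 (0.257) with high fat. That fit also gave 3.59 for Cyp2b9 (0.402) and 5.93 for Cyp2b10 (0.0792) in the knockout effect minus the high fat effect; DESeq2's Wald test gave 5.27 for Cyp2b13 there (0.0119). Adding 2 in place of 0.5 gave a log2 ratio difference of 7.84 in the knockout; the floor of the wild-type Cyp2b9 counts sets this. With cholic acid, Cyp2b9 was 4.84 by DESeq2's Wald test (0.0470), 4.76 without a filter (0.0145) and 4.75 in 1 fit (0.0344). Its knockout effect minus the cholic acid effect was 7.16 without a filter (0.0469), and its hepatectomy effect minus the cholic acid effect -4.64 by the Wald test (0.0457) and -4.57 without a filter (0.0330). Counts of genes called moved with TCPOBOP to 91 (Wald) and 9 (1 fit), with high fat to 1735 (1 fit), and with cholic acid from 600 to 1445 (Wald), 955 (no filter) and 3132 (1 fit). The causes were not tested.

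Leaving out 1 library at a time, genes called ranged from 0 to 1233 with TCPOBOP, 2554 to 4217 after hepatectomy, 1141 to 2644 with high fat and 189 to 1345 with cholic acid. With TCPOBOP, log2 fold changes ranged from -2.73 to 2.98 for Cyp2b9, -0.21 to 8.31 for Cyp2b10 and -2.85 to 6.80 for Cyp2b13. Cyp2b9 without the library labelled corn oil 1 was 2.98, Cyp2b10 without that labelled corn oil 2 was -0.21, and Cyp2b13 without corn oil 1 was 6.80: these changed sign. After hepatectomy Cyp2b9 ranged from -0.46 to 0.54 and changed sign without sham 1 (-0.03) and without hepatectomy 3 (-0.46). For Cyp2b9 the knockout effect minus the cholic acid effect ranged from 5.15 to 9.49, minus the high fat effect from 2.05 to 5.03, and the hepatectomy effect minus the cholic acid effect from -6.60 to -2.21 (-5.09, adjusted p = 0.0428, without cholic acid 1). For Cyp2b10 the knockout effect minus the cholic acid effect ranged from -0.58 to 1.46 and changed sign without wild type 1 (-0.09), chow 2 (-0.58) and cholic acid 1 (-0.29). In the cholic acid comparison Cyp2b9 passed the low-count filter in 4 of the 6 such fits.

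The titles number the replicates alike in treated and control groups. Deviations of same-numbered libraries correlated at 0.13 with TCPOBOP and high fat, -0.19 to 0.00 in the knockout, -0.07 to 0.11 after hepatectomy and 0.10 to 0.16 with cholic acid, where every library correlated best with its own number; not every pair exceeded 0.1, so the numbers were not taken to pair the samples. With the replicate block, Cyp2b9 was 4.73 with cholic acid (edgeR adjusted p = 0.0172), and its effect differences were 7.12 (0.00493) for knockout minus cholic acid, -4.64 (0.0120) for hepatectomy minus cholic acid and 3.65 (0.0691) for knockout minus high fat. The block called 480 genes with cholic acid and changed no other call of a member. Wild-type Cyp2b9 (4 reads) and Cyp2b13 (2 reads in wild type and on chow) limit how precisely their fold changes are known.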
